A study of Mus musculus with 45 samples.

Results

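Levels of 10 exocrine pancreas genes were followed through 45 libraries of scaffolds, lungs, spleens and primary tumors. The genes were Pnlip, Clps, Cel, Prss2, Try5, Ctrb1, Cela1, Cpa1, Cpb1 and Zg16, chosen from a table of 55367 gene symbols because pancreatic enzyme transcripts had been seen in 4T07 lungs and in some spleens of these same libraries. All 10 were present in the table. Since levels in 4T07 lungs and in spleens chose the genes, those levels are given as a description. Tests are reported for scaffolds and for tumors. Calls among the lungs of the remaining groups are also a description, because the 4T07 lungs shared their fit.

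The study took tissues from female BALB/c mice that carried a porous polycaprolactone scaffold under the skin of the back, implanted at 7 to 8 weeks of age. Tumor-bearing mice received cells of 67NR, 4T07 or 4T1, 3 triple-negative mammary carcinoma lines derived from a single spontaneous mouse tumor, in a mammary fat pad, and tissues were taken on day 14. Healthy control mice carried a scaffold but no tumor. Each of the 15 groups (control, 67NR, 4T07 and 4T1 scaffolds, lungs and spleens, and 67NR, 4T07 and 4T1 tumors) held 3 libraries of RNA from whole tissue, named here by group and library number.

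The exocrine pancreas consists of acinar cells that store digestive enzymes, mostly as inactive precursors, in zymogen granules and release them through ducts into the gut. Acinar genes are switched on together by the PTF1 complex, in which Ptf1a, an E protein and Rbpjl or Rbpj bind an E-box next to a TGGGAA-like box upstream of each gene. The islets of Langerhans, the endocrine part of the organ, express insulin, glucagon and other hormones in place of these enzymes. None of the 4 tissues sampled is a known site of abundant synthesis of pancreatic lipase or trypsinogen, although Cela1 transcripts are known outside the pancreas.

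Upstream sequence was available from RefSeq (GRCm38.p6) for 7 of the 10 genes, and the 250 bases before the annotated start of 4 of them are shown because these 4 cover the pattern of motifs and the gene, Cela1, whose levels stood apart from the rest. Capitals mark the E-box CACCTG, the box TGGGAA and the TATA box TATAAA on either strand, and all sequences run 5′ to 3′ on the strand of the gene.
Cel: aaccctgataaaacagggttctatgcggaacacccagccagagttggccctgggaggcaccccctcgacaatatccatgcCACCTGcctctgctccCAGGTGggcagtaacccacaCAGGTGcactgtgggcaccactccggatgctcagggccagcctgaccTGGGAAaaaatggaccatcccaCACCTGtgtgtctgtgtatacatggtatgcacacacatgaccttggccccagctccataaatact
Prss2: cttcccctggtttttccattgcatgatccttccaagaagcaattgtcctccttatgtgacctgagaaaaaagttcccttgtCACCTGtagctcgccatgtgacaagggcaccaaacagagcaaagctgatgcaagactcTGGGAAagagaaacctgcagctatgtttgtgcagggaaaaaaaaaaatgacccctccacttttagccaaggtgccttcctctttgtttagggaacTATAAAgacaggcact
Pnlip: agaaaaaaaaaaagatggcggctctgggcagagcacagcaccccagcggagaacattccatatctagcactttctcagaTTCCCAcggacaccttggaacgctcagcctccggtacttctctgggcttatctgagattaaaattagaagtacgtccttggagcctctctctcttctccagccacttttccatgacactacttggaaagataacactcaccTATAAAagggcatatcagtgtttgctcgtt
Cela1: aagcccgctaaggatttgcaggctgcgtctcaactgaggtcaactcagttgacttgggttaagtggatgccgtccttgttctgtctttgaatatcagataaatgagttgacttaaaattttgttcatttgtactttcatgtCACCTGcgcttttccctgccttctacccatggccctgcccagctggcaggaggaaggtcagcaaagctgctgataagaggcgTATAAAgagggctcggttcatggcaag
The windows were chr2:28563404-28563653 on the minus strand for Cel, chr6:41521526-41521775 on the plus strand for Prss2, chr19:58670115-58670364 on the plus strand for Pnlip and chr15:100687921-100688170 on the minus strand for Cela1. The E-box letters were found in 4 of the 7 windows (Cel, Prss2, Cpb1 and Cela1) and in 17.2% of the 32851 windows of the same length in the table. TGGGAA was found in 5 of 7 (Cel, Prss2, Pnlip, Cpa1 and Ctrb1) and in 21.6% of all windows, and TATAAA in 3 of 7 (Prss2, Pnlip and Cela1) and in 12.4%. The E-box letters and TGGGAA both occurred somewhere in the windows of Cel and Prss2, against 3.91% of all windows. No spacing between them was required. In Prss2 they began 169 and 111 bases before the start, and in Cel the nearest pair began 65 and 87 bases before it. Cel held 4 copies of the E-box, and the shown window of Cela1 held an E-box but no TGGGAA. These matches describe letters only and were not tested.

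Levels are given in CPM, the counts of a gene in every 1000000 counts of its library. The 45 libraries held 3491890 to 8175380 counts each (median 5149590). A floor of 3 counts was used wherever a gene had none, which equals 0.367 to 0.859 CPM depending on the library. The libraries were made from the 3′ ends of transcripts, with 1 tag expected for each transcript whatever its length. In RNA from whole tissue, fewer cells of a type and less RNA in each cell cannot be told apart. The labels do not tie tissues to individual mice, so a spleen and a lung cannot be assigned to the same animal.

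Tissue labels were compared with marker genes before the members were read. The 3 4T07 lungs stood apart from the other 9 lungs: 10 lung markers, led by the club cell secretoglobin Scgb1a1 and surfactant protein gene Sftpc, summed to 13230, 6608 and 16440 CPM there, against 32140 to 42570 CPM in the others. In the same 3 lungs, 10 spleen markers summed to 396 to 532 CPM, against 97.9 to 193 CPM in the other lungs and 467 to 551 CPM in the 4T07 spleens. In the 4T07 spleens the lung markers summed to 56.7 to 105 CPM, against 11.3 to 39.0 CPM in the other spleens. Spleen markers were also lower in 4T07 and 4T1 spleens, at 407 to 679 CPM, than in control and 67NR spleens, at 1398 to 1947 CPM. The 4T07 lungs still held lung markers above every spleen. Scaffold markers (8 genes of bone-resorbing macrophages, giant cells and matrix) summed to 17200 to 25540 CPM in scaffolds and to 4560 CPM or less elsewhere. A list of 8 genes, of epithelium and proliferation and with the collagen gene Col1a1 that the scaffold list also holds, did not set tumors apart. It summed to 960 to 1189 CPM in 67NR tumors against 2276 to 3974 CPM in scaffolds, so the tumor label was not checked by it. Col1a1 alone made up 2485 of the mean 2710 CPM in control scaffolds and 3146 of 3374 CPM in 67NR scaffolds. The part of these shifts in the levels described next was not tested, and since they touched every 4T07 lung no 4T07 lung without them was available.

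**Figure D1:**
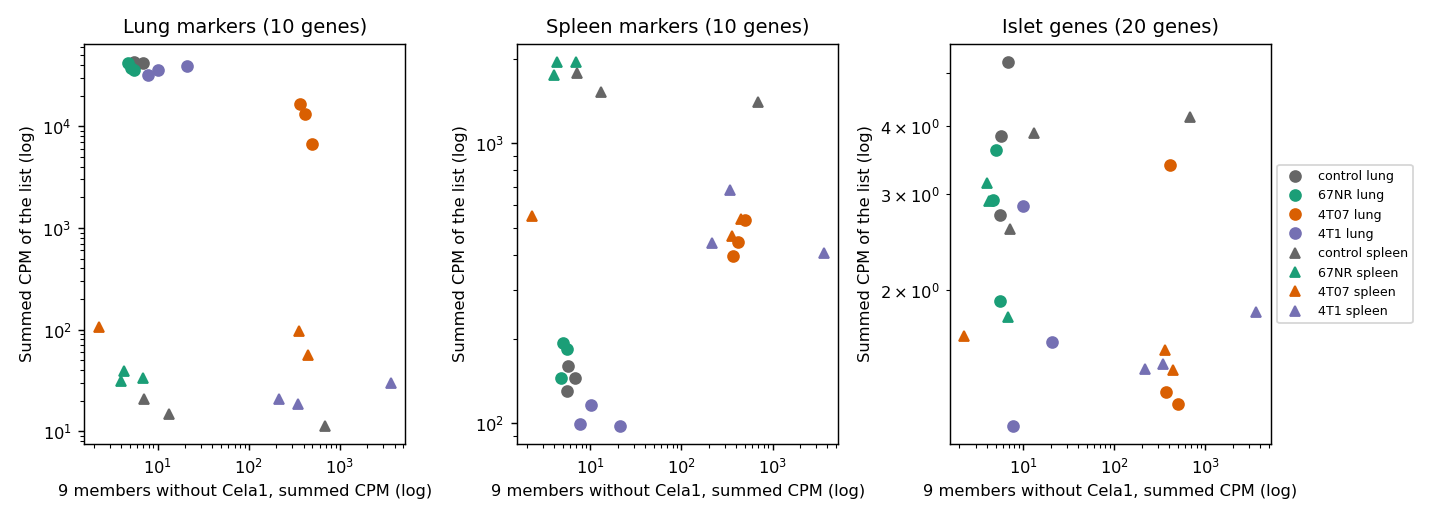
Summed CPM of 10 lung markers, 10 spleen markers and 20 islet genes (vertical axes, log scale) against the summed CPM of the 9 members without Cela1 (horizontal axis, log scale) in the 24 lung (circles) and spleen (triangles) libraries. The 3 4T07 lungs lie at 368 to 499 CPM of the members and below all other lungs in lung markers, while islet genes stay between 1.13 and 5.23 CPM in every library shown.

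The 10 members summed to very different levels across the 45 libraries. The lowest library was a 67NR lung at 7.96 CPM and the highest was 4T1 spleen 42 at 4588 CPM, where the 10 genes took 0.459% of all counts. By group mean the order began with 4T1 spleens at 1800 ± 2416 CPM (SD, n = 3), 4T07 lungs at 610 ± 88.4 CPM, control spleens at 414 ± 544 CPM and 4T07 spleens at 381 ± 301 CPM. It went on with 4T07 scaffolds at 78.2 ± 76.5 CPM and 67NR spleens at 63.7 ± 20.4 CPM, and ended with control lungs at 14.7 ± 2.93 CPM and 67NR lungs at 9.19 ± 1.19 CPM. Neighbours in this order overlapped in their libraries throughout, except control lungs and 67NR lungs at the bottom. The 3 4T07 lungs lay within 513 to 686 CPM, while the libraries of the 4T1, control and 4T07 spleens differed at least 10-fold within a group.

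**Figure D2:**
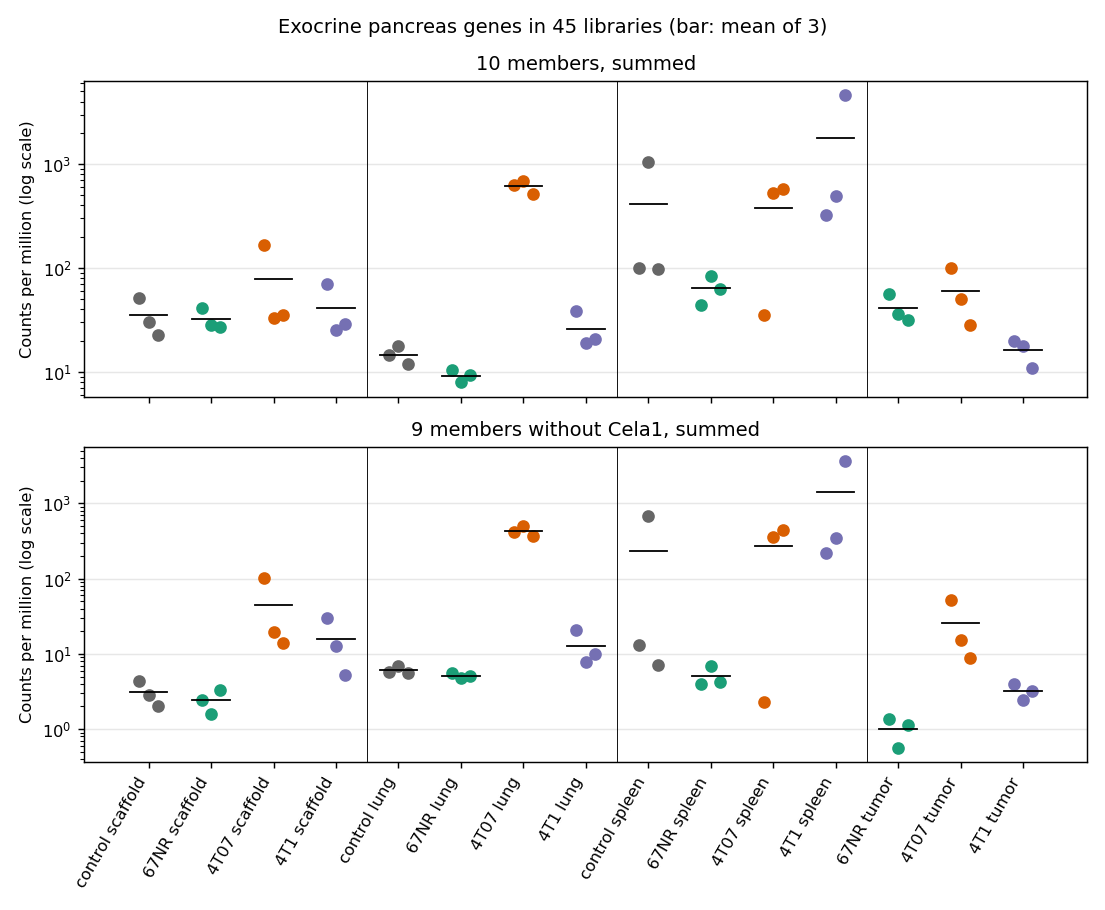
Summed CPM (log scale) of the 10 members (top) and of the 9 members without Cela1 (bottom) in each library, by group, with a bar at the mean of 3. All 3 4T07 lungs lie at 513 CPM or more in the upper plot, while 1 control spleen at 1042 CPM and 1 4T07 spleen at 35.0 CPM lie far from the rest of their groups.

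Cela1, an elastase of the chymotrypsin family, was the member with a level of its own in every tissue. In libraries where the other 9 members summed to under 10 CPM, Cela1 lay between 20.5 and 47.6 CPM in 7 scaffolds, between 32.7 and 91.2 CPM in 5 spleens, between 7.77 and 54.8 CPM in 7 tumors and between 3.25 and 11.3 CPM in 7 lungs. Cpb1, a pancreatic carboxypeptidase that removes basic C-terminal residues, had such a floor in the same lungs, at 3.53 to 5.05 CPM, but stayed at 2.54 CPM or less in the tumors and scaffolds of this kind. Zg16, a lectin of the zymogen granule membrane, lay between 1.03 and 1.88 CPM in the 5 spleens. Cel stayed under 1 CPM in those lungs and spleens. For this reason sums are also given without Cela1. Across the 45 libraries, the correlation of log2(CPM + 0.5) of a member with the mean of the other 9 was 0.790 for Cela1, 0.907 for Cpb1 and 0.966 to 0.989 for the remaining 8, which describes these libraries and reflects groups that share tissue and treatment.

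**Figure D3:**
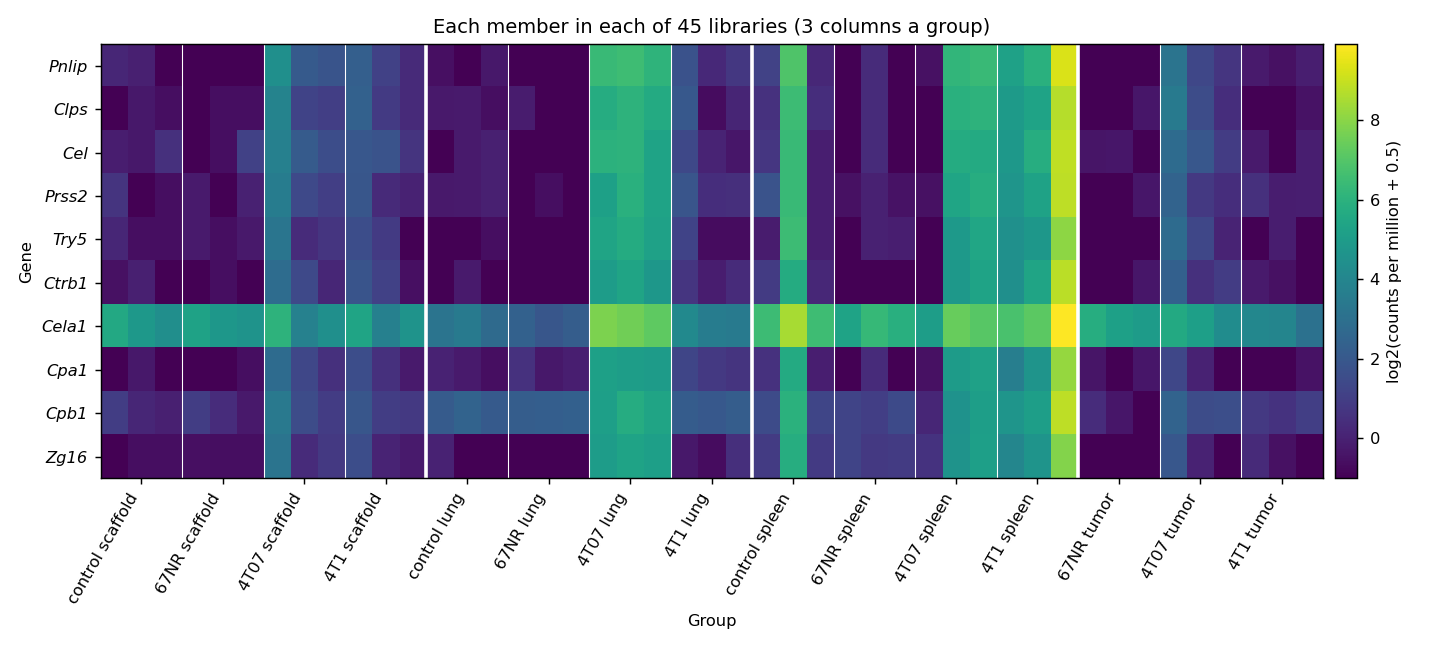
log2(CPM + 0.5) of each member (rows) in each of the 45 libraries (columns, 3 for each group, ordered by tissue). Whole columns are bright in the 4T07 lungs and in 6 spleens, and the row of Cela1 is bright in nearly all columns.

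The lipid-digesting members were among the genes with the largest share of member counts in the 4T07 lungs. Pnlip, pancreatic triglyceride lipase, was at 83.4, 90.8 and 67.7 CPM in the 4T07 lungs, at 0.174, 0 and 0.324 CPM in control lungs and at 0 in all 3 67NR lungs. Taking 3 counts as the floor of a library, its mean in 4T07 lungs was at least 162-fold higher than in 67NR lungs. In 4T1 lungs Pnlip was at 2.90, 0.706 and 1.20 CPM, so that the 4 groups of lungs overlapped only between control and 67NR. Clps, colipase, which anchors the lipase to fat droplets, was at 53.8, 65.0 and 49.9 CPM in 4T07 lungs and at no more than 0.383 CPM in control and 67NR lungs. Cel, the bile salt-dependent carboxyl ester lipase, was at 63.9, 65.9 and 40.1 CPM in 4T07 lungs. That was 201-fold above the control mean, which rested on 5 counts in all.

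The protease precursors were also highest in the 4T07 lungs. Prss2, a trypsinogen, was at 35.8, 59.5 and 39.3 CPM in 4T07 lungs, at 0.349, 0.361 and 0.485 CPM in control lungs and at 0, 0.162 and 0 CPM in 67NR lungs. Try5, a second trypsinogen, was at 40.4, 51.4 and 37.8 CPM in 4T07 lungs, with 1 count over the 3 control lungs and none in 67NR lungs. Counts of the trypsinogens are uncertain among themselves, because the transcripts of Try5 and of the related Try4 were identical at 97.1% of aligned bases with a shared run of 104 bases near the 3′ end, and Try5 and Prss2 at 88.5% with a run of 62 bases. Ctrb1, chymotrypsinogen B, was at 32.6, 41.1 and 27.1 CPM in 4T07 lungs and at 0 in all 67NR lungs, at least 67.4-fold higher. Cpa1, a carboxypeptidase for aromatic and aliphatic residues, was at 36.2, 33.0 and 31.0 CPM. That was 95.9-fold above its control mean, which rested on 6 counts in all. Cpb1, with its floor in all lungs, was at 35.6, 53.3 and 40.8 CPM and 10.3-fold above control lungs, and Cela1, at 218, 187 and 145 CPM, was 21.3-fold above. Zg16 was at 32.0, 39.4 and 34.7 CPM, with 3 counts in all over the control lungs. Every member was higher in each 4T07 lung than in each of the other 9 lungs. The thresholds used (adjusted p under 0.10 with edgeR and a fold change over 2) called all 10 members higher in 4T07 lungs, where 15.3% of 21937 genes were higher against control, 14.4% against 67NR and 11.9% against 4T1 lungs, and where 25.0%, 21.2% and 21.6% of genes were higher without overlap. The rule for the members used these contrasts, so the counts carry no further weight.

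Comparisons among 4T1, 67NR and control lungs do not contrast the 4T07 lungs, in which the genes had been noticed. The 4T07 lungs still shared the filter, scaling and estimate of spread of these fits, so the calls are given as a description. Summed without Cela1, the other 9 members were at 20.9, 7.77 and 10.0 CPM in 4T1 lungs, at 5.75, 6.85 and 5.50 CPM in control lungs and at 5.55, 4.71 and 5.06 CPM in 67NR lungs, so that every 4T1 lung lay above all 6 of the others. Against control lungs, 4 of 10 members were higher in 4T1 lungs, where 3.56% of genes were higher. DESeq2 also called 4. These were Cpa1 (log2 fold change 1.98 ± 0.51 (approximate SE), edgeR adjusted p = 0.01965), Prss2 (1.97 ± 0.65, edgeR adjusted p = 0.07006), Pnlip (edgeR adjusted p = 0.01445) and Ctrb1 (edgeR adjusted p = 0.08282). Counts were small, and no fold is given for Pnlip and Ctrb1. Pnlip had 18, 5 and 8 counts in the 4T1 lungs and 3 in all in the controls. Without 4T1 lung 37, the highest of its group for 8 of the 10 members, or without control lung 4 or 6, 2 of these calls remained (Cpa1 and Pnlip). Against 67NR lungs, 9 of 10 members were higher in 4T1 lungs, all but Cpb1, where 3.23% of genes were higher. Cela1 showed the smallest adjusted p, with 17.4, 11.3 and 10.5 CPM in 4T1 lungs against 4.79, 3.25 and 4.20 CPM in 67NR lungs (log2 fold change 1.80 ± 0.26, edgeR adjusted p = 9.657e-05). Pnlip, Cel, Ctrb1, Try5 and Zg16 had no count in any 67NR lung. Leaving out 4T1 lung 37, 67NR lung 14 or 67NR lung 15 left 5 calls each, Cela1, Ctrb1, Pnlip and Prss2 among them every time. Only Cpa1, Cpb1 and Cela1 had more than 10 counts over the 6 control and 67NR lungs, so the other 7 entered these tests through the 4T07 and 4T1 lungs.

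Between 67NR and control lungs, 1 member differed. Cela1 fell by 1.18 ± 0.28 on the log2 scale in 67NR lungs (edgeR adjusted p = 0.01218), from 8.72, 10.8 and 6.31 CPM in control lungs to the 67NR values above, where 1.73% of genes were lower. No member was higher with edgeR, where 2.52% of genes were, with 2 members at an unadjusted p under 0.05 in either direction and 1 called by DESeq2. The call on Cela1 was lost without control lung 5.

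Spleens of 1 group differed widely. Pnlip was at 1.75, 120 and 0.647 CPM in the 3 control spleens, at 0, 0.766 and 0 CPM in 67NR spleens, at 0.206, 72.0 and 84.5 CPM in 4T07 spleens and at 37.4, 60.5 and 630 CPM in 4T1 spleens. Ctrb1 followed with 1.36, 51.5 and 0.647 CPM in control spleens, no count in 67NR spleens, 0, 27.6 and 39.2 CPM in 4T07 spleens and 21.1, 40.9 and 437 CPM in 4T1 spleens. The control spleen, 4T07 spleen and 4T1 spleen that departed from their groups (libraries 8, 28 and 42) did so for every member. Summed without Cela1, the members lay at 216 CPM or more in 6 of the 12 spleens and at 13.2 CPM or less in the other 6, which included all 3 67NR spleens.

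Cela1, with its own level in spleens, was at 87.8, 358 and 91.2 CPM in control spleens, at 39.8, 77.7 and 58.5 CPM in 67NR spleens, at 32.7, 165 and 136 CPM in 4T07 spleens and at 108, 144 and 960 CPM in 4T1 spleens. The summed level of the 10 members was 99.7 CPM in control spleens without library 8, 554 CPM in 4T07 spleens without library 28 and 406 CPM in 4T1 spleens without library 42. All 10 members were higher in each 4T1 spleen than in each 67NR spleen, and the thresholds called all 10, where 13.3% of genes were higher without overlap and 10.3% of 21128 genes were called higher. Against control spleens 5 members were called higher in 4T1 spleens, where 9.84% of genes were called. That count became 0 without 4T1 spleen 42 or control spleen 7 or 9, and 10 without control spleen 8. 4T07 spleens had 8 members called higher than 67NR spleens, where 6.50% of genes were, 2 without 67NR spleen 17 or 18, 4 without 4T07 spleen 29 and 5 without 67NR spleen 16. edgeR called none between 4T07 and control spleens, where 8.26% of genes were higher, with 0 members at an unadjusted p under 0.05 and 0 by DESeq2, but 8 without control spleen 8. It called none between 67NR and control spleens, where 1.29% of genes were higher, and 0.970% lower, with 10 at an unadjusted p under 0.05 and 6 lower by DESeq2. It called none between 4T07 and 4T1 spleens, where 1.50% were higher, with 3 at an unadjusted p under 0.05 and 0 by DESeq2. The members were chosen in part from spleens, so these counts are descriptions.

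The makeup of the member counts was read only in libraries where the members were high. Apart from 4T07 scaffold 22 these were 4T07 lungs and spleens, tissues whose levels chose the genes, so the shares are a description. In 10 libraries with at least 500 counts of the 9 members without Cela1 (4T07 scaffold 22, the 3 4T07 lungs, control spleen 8, 4T07 spleens 29 and 30 and the 3 4T1 spleens), Pnlip took 17.3% to 20.8% of them, with a median of 18.3%. Clps took 11.3% to 16.7%, Cel 10.9% to 16.0%, Prss2 8.65% to 12.4% and Try5 7.31% to 13.0%. Cpb1 varied most, from 6.46% in 4T07 spleen 29 (95% Wilson interval 5.49% to 7.60%) to 12.6% in 4T1 spleen 42 (12.1% to 13.1%), a ratio of 1.95. Ctrb1 took 6.68% to 12.1%, Cpa1 5.67% to 8.75% and Zg16 6.50% to 9.42%. While the summed level of these 9 genes ranged from 101 to 3629 CPM over the 10 libraries, no share changed by more than 1.95 times. The intervals cover counting error only, and those of Cpb1 in the 2 spleens did not overlap.

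**Figure D4:**
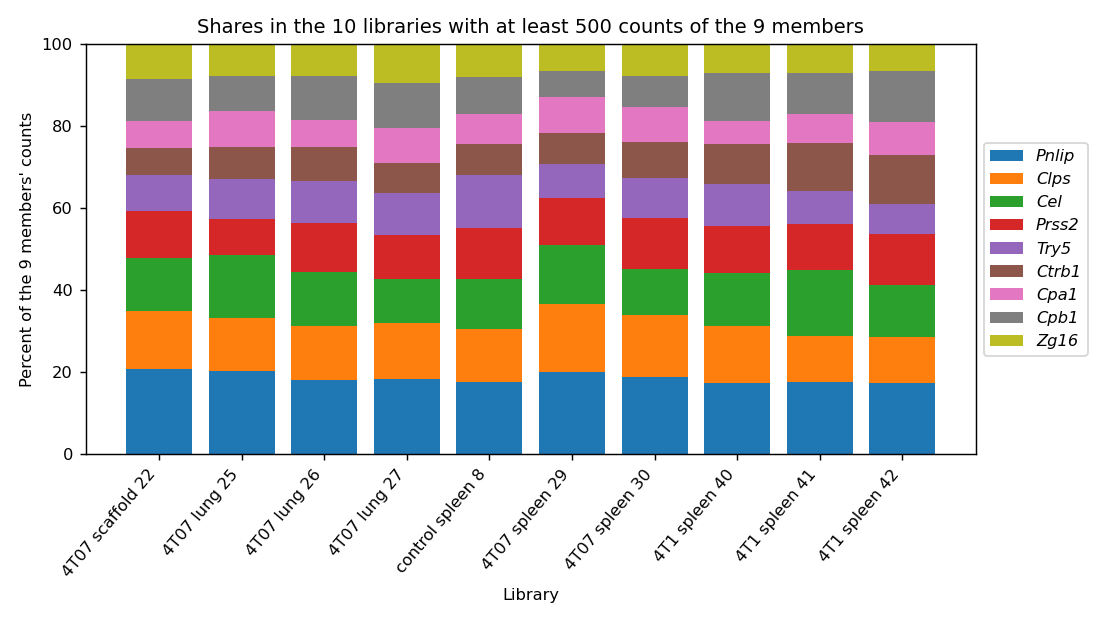
Share of each of 9 members (percent of their summed counts, stacked to 100) in the 10 libraries with at least 500 such counts. Pnlip takes 17.3% to 20.8% in all 10, across lungs, spleens and a scaffold.

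Levels in scaffolds were not named in the choice of the genes, although results of all 4 tissues were known by then. In 4T07 scaffolds 9 of 10 members were higher than in control scaffolds, all but Cela1, where 3.85% of 22156 genes were higher, and DESeq2 called the same number. Pnlip was at 20.9, 3.73 and 3.11 CPM in 4T07 scaffolds and at 0.629, 0.475 and 0 CPM in control scaffolds (log2 fold change 4.53 ± 0.95, edgeR adjusted p = 0.007621). Cel was at 13.0, 3.93 and 2.48 CPM against 0.419, 0.317 and 0.945 CPM (3.34 ± 0.79, edgeR adjusted p = 0.01207). Clps, with 14.3, 1.77 and 1.55 CPM, stood against 3 counts over the control scaffolds (edgeR adjusted p = 0.008781). These 3 lipid-digesting genes did not overlap between 4T07 and control scaffolds.

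Among the proteases, Prss2 was at 11.5, 2.16 and 1.55 CPM in 4T07 scaffolds and at 1.05, 0 and 0.157 CPM in control scaffolds (3.65 ± 1.00, edgeR adjusted p = 0.02533). Ctrb1 was at 6.73, 2.16 and 0.621 CPM against 0.210, 0.475 and 0 CPM (edgeR adjusted p = 0.03099), and Try5 was at 8.81, 0.786 and 1.09 CPM against 0.629, 0.158 and 0.157 CPM (edgeR adjusted p = 0.04211). Each of these 3 calls was lost without 4T07 scaffold 22, the highest library, as was that of Cpb1. Cpb1 was at 10.3, 2.36 and 1.40 CPM against 1.47, 0.633 and 0.472 CPM and overlapped between groups (2.37 ± 0.72, edgeR adjusted p = 0.04168). Cpa1 and Zg16 had 2 counts each over the control scaffolds and 70 and 82 over the 4T07 scaffolds. In all, 8 members did not overlap between 4T07 and control scaffolds, where 21.8% of genes were higher without overlap. Cela1 was at 65.9, 13.2 and 21.3 CPM against 47.6, 27.6 and 20.5 CPM, with a log2 fold change of -0.08 ± 0.49.

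4T07 scaffold 22 carried most of the counts, with 823 of the 9 members without Cela1 against 100 and 90 in the other 4T07 scaffolds. Its spleen markers summed to 148 CPM, against 42.7 and 24.2 CPM in the rest of its group and at most 97.2 CPM in other scaffolds. Its lung markers summed to 297 CPM, against 96.9 and 63.7 CPM in its group, though 67NR scaffold 10 reached 502 CPM. The part of these markers in the member levels was not tested. Without 4T07 scaffold 22, 5 members were still called against control scaffolds (Cel, Clps, Cpa1, Pnlip and Zg16). The 3 values of Cpa1 (6.61, 1.97 and 0.932 CPM) all lay above its highest control value of 0.317 CPM. Over control and 67NR scaffolds only Cel, Prss2, Cpb1 and Cela1 had more than 10 counts. The other 6 thus passed the filter on low counts through 4T07 and 4T1 scaffolds, and their tests depended on counts in those groups. With only the 4T07 scaffolds left out, all 10 members still passed, with 25 counts or more each. Of the 4 that passed over control and 67NR scaffolds alone, Cel, Prss2 and Cpb1 were called. Against 67NR scaffolds the 4T07 scaffolds again had 9 members called, where 2.82% of genes were, and 6 by DESeq2. 8 members were higher there without overlap, where 18.9% of genes were, and 5 were called without 4T07 scaffold 22. Pnlip had no count in any 67NR scaffold and was at least 18.2-fold higher in 4T07 scaffolds.

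4T1 scaffolds lay between. Summed without Cela1, the members were at 29.6, 12.7 and 5.21 CPM in 4T1 scaffolds, at 101, 19.7 and 14.0 CPM in 4T07 scaffolds, at 4.41, 2.85 and 2.05 CPM in control scaffolds and at 2.40, 1.61 and 3.27 CPM in 67NR scaffolds. Every 4T1 scaffold lay above every control and 67NR scaffold in this sum. edgeR called 0 members against control scaffolds, where 0.0135% of genes were higher, with 6 at an unadjusted p under 0.05 and 0 by DESeq2, while 5 members did not overlap and 11.8% of genes were higher without overlap. Against 67NR scaffolds it called 0, where 0.00903% were called, with 6 at an unadjusted p under 0.05 and 0 by DESeq2, while 6 members did not overlap and 8.81% of genes were higher without overlap. Pnlip in 4T1 scaffolds was at 4.41, 1.68 and 0.718 CPM (log2 fold change against control 2.55 ± 1.08, edgeR adjusted p = 0.3694). The direct comparison of 4T07 with 4T1 scaffolds called 0 members with edgeR, where 0.366% of genes were higher, with 3 at an unadjusted p under 0.05 and 0 by DESeq2, and Pnlip differed most (1.98 ± 0.72, edgeR adjusted p = 0.2097). 67NR and control scaffolds had 0 members called, where 0% of genes were higher, with 0 at an unadjusted p under 0.05 and 0 by DESeq2.

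**Figure D5:**
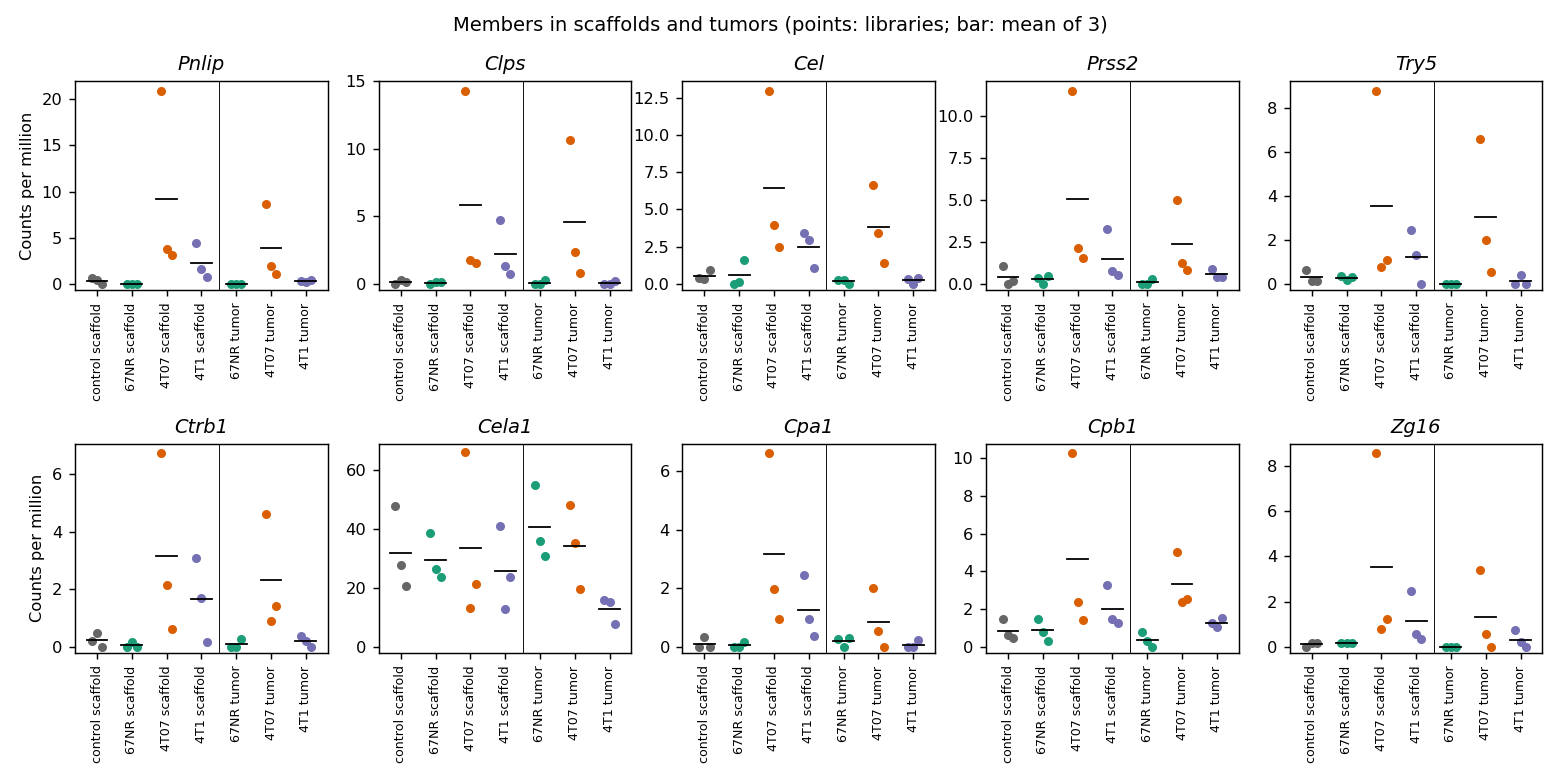
CPM of each member (one plot a gene, vertical axes from 0 and different between genes) in scaffolds and tumors by group, with points for libraries and a bar at the mean of 3. The highest scaffold is 4T07 scaffold 22 for all 10 genes, the highest tumor is 4T07 tumor 31 for all but Cela1, and Cela1 is present in every group.

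In primary tumors, 8 of 10 members were higher in 4T07 than in 67NR tumors, all but Cela1 and Cpa1. There 17.1% of 20508 genes were higher at an adjusted p under 0.05, and DESeq2 called 7 members. Of the called members, only Cpb1 had more than 10 counts over the 67NR and 4T1 tumors. The rest passed the filter only through their counts in 4T07 tumors. Their calls were thus close to fixed in advance, and their adjusted p values carry little weight as tests. Levels were low. Pnlip was at 8.63, 2.00 and 1.13 CPM in 4T07 tumors and had no count in 67NR tumors, at least 4.72-fold higher (edgeR adjusted p = 0.001882). Clps was at 10.6, 2.36 and 0.847 CPM, with 1 count over the 67NR tumors (edgeR adjusted p = 0.003514), and Cel was at 6.62, 3.45 and 1.41 CPM, with 2 counts there (edgeR adjusted p = 0.002381). The lipid-digesting genes thus did not overlap between 4T07 and 67NR tumors.

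Try5 was at 6.62, 2.00 and 0.564 CPM in 4T07 tumors and had no count in 67NR tumors (edgeR adjusted p = 0.005575). Cpb1 was at 5.02, 2.36 and 2.54 CPM against 0.806, 0.280 and 0 CPM (log2 fold change 2.85 ± 0.70, edgeR adjusted p = 0.004633). Of 7 members higher without overlap in 4T07 than in 67NR tumors, where 35.0% of genes were, none was Cpa1, with 2.01, 0.544 and 0 CPM. Only Cpb1 and Cela1 had more than 10 counts over the 67NR and 4T1 tumors, so the other 8 entered the test through the 4T07 tumors. The same limit holds for the calls against 4T1 tumors given below, apart from that of Cela1. Without 4T07 tumor 31, 5 were called (Cel, Clps, Cpb1, Pnlip and Try5), and with a filter of at least 10 counts in 3 libraries Cela1 alone was tested and not called. Against 4T1 tumors, 6 members were higher in 4T07 tumors (Cel, Cela1, Clps, Ctrb1, Pnlip and Try5), where 4.79% of genes were, 2 without 4T07 tumor 31 (Cel and Clps) and 3 without 4T1 tumor 43. 7 members were higher there without overlap, where 19.4% of genes were.

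Cela1 went its own way in tumors. It was at 54.8, 35.8 and 30.8 CPM in 67NR tumors, at 48.2, 35.2 and 19.5 CPM in 4T07 tumors and at 15.9, 15.2 and 7.77 CPM in 4T1 tumors. It fell by 1.83 ± 0.32 on the log2 scale in 4T1 against 67NR tumors (edgeR adjusted p = 0.0004545), where 9.07% of genes were lower, and no 4T1 tumor overlapped a 67NR tumor. It was higher in 4T07 than in 4T1 tumors (1.35 ± 0.32, edgeR adjusted p = 0.009689), and the 4T07 and 67NR tumors overlapped (-0.48 ± 0.30, edgeR adjusted p = 0.2225). With edgeR 0 members were higher in 4T1 than in 67NR tumors, where 11.6% of genes were, and Cela1 was the 1 member at an unadjusted p under 0.05 and the 1 called by DESeq2. Summed without Cela1, the members were at 4.02, 2.46 and 3.24 CPM in 4T1 tumors and at 1.34, 0.560 and 1.13 CPM in 67NR tumors.

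Further genes of the exocrine pancreas were read from a list of 37 in the table. In 4T07 against control scaffolds 22 of them were tested, 11 were higher and 3 lower, where 3.85% of all genes were higher and 3.59% lower. Of the 22, 10 had more than 10 counts over control and 67NR scaffolds, and of these 1 was higher and 3 lower, so the other 12 entered the test through 4T07 and 4T1 scaffolds. In 4T07 against 67NR scaffolds 9 were higher and 3 lower, where 2.82% and 3.03% of genes were. Of the 10 with more than 10 counts over control and 67NR scaffolds, 1 was higher and 3 lower here too. In 4T07 against 67NR tumors 15 were tested, 7 were higher and 1 lower, where 17.1% and 11.8% of genes were, and of the 8 with more than 10 counts over 67NR and 4T1 tumors 2 were higher and 1 lower. In 4T1 against control and against 67NR scaffolds edgeR called 0 (5 at an unadjusted p under 0.05 and 0 by DESeq2 in each). The 6 with the highest mean level over the 45 libraries were 2210010C04Rik, Reg1, Cela3b, Try4, Ctrl and Pnliprp1. 2210010C04Rik, a trypsinogen-like gene, was at 119 ± 7.95 CPM in 4T07 lungs, 0.404 ± 0.119 CPM in control lungs and 273 ± 371 CPM in 4T1 spleens (SD, n = 3). Cela3b, a pancreatic elastase, was at 64.3 ± 9.96 CPM in 4T07 lungs against 0.170 ± 0.174 CPM in control lungs, Try4 at 44.0 ± 6.82 against 0.0601 ± 0.104 CPM, Ctrl, a chymotrypsin-like protease, at 42.1 ± 5.66 against 0.463 ± 0.121 CPM, and Pnliprp1, a lipase-related protein, at 35.9 ± 5.48 against 1.22 ± 0.578 CPM.

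Reg1, a secreted lectin of acinar cells and of injured epithelia, did not share the pattern in scaffolds. It was at 76.6 ± 11.7 CPM in control scaffolds, 77.2 ± 23.6 CPM in 67NR scaffolds and 57.2 ± 22.0 CPM in 4T1 scaffolds, and fell by 1.99 ± 0.30 on the log2 scale in 4T07 against control scaffolds (edgeR adjusted p = 0.001019), to 21.3 ± 4.72 CPM. In 4T07 lungs it was at 11.4 ± 1.76 CPM, against 0.118 ± 0.102 CPM in control lungs. The other genes that fell in 4T07 against control scaffolds were Klk1, a tissue kallikrein, from 8.88 to 3.51 CPM, and Amy1, an amylase of salivary gland and liver, from 3.54 to 1.22 CPM. Both were picked after their values were seen.

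In 4T07 against control lungs, 21 of the 28 listed genes tested were higher and 2 lower, in a contrast that chose the members. None of the 4 transcription factors on the list (Ptf1a, Rbpjl, Nr5a2 and Bhlha15) was among those called higher. Ptf1a, the defining subunit of PTF1, had only 4 counts over the 45 libraries. They lay in 4T1 spleens, at a mean of 0.305 CPM, with none in the other 14 groups. Rbpjl was at 12.2 ± 2.98 CPM in 4T07 lungs against 23.2 ± 2.75 CPM in control lungs, 31.7 ± 4.15 CPM in 67NR lungs and 25.5 ± 4.64 CPM in 4T1 lungs. Nr5a2 was at 1.13 ± 0.528 CPM against 2.07 ± 0.579 CPM in control lungs, and Bhlha15 at 1.18 ± 1.03 CPM against 0.705 ± 0.482 CPM. Cckar, the cholecystokinin receptor of acinar cells, was at 17.2 ± 6.36 CPM in 4T07 lungs and at 41.2 ± 12.5 CPM in control lungs. These 5 genes were singled out after their values were seen. Ptf1a, Nr5a2 and Bhlha15 lay near the limit of detection at this depth, while Rbpjl lay well above it in every group of lungs.

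By likeness over all 45 libraries, among 23762 genes with at least 30 counts, the 9 genes closest to the members' mean log2(CPM + 0.5) were Try4 (r = 0.990), Ctrc, Sycn, Cela3b, Pnliprp2, Ctrl, 2210010C04Rik, Amy2b and Pnliprp1 (r = 0.962). All 9 were on the list of exocrine genes. In all, 13 genes reached 0.9, all of them on that list, and the next outside it was Ms4a3 at 0.835, a gene of granulocyte precursors. Libraries share tissue and treatment, so these values describe the likeness and carry no test.

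Islet genes were low in lungs and spleens. A list of 20 endocrine genes, among them Ins1, Ins2, Gcg and Sst, summed to 1.24 to 3.39 CPM in 4T07 lungs and to 2.75 to 5.23 CPM in control lungs, and to 1.44 to 1.83 CPM in 4T1 spleens against 2.59 to 4.15 CPM in control spleens. The list was higher in tumors, at 20.4 to 26.6 CPM in 67NR tumors and 7.77 to 12.6 CPM in 4T1 tumors, where Mafa, a transcription factor, led it with means of 17.3 and 8.35 CPM. Of the 20, 9 had no count in the 4T07 lungs and 11 none in the 4T1 spleens. Ins1 and Ins2 stayed at or under 0.217 CPM in 4T07 lungs. A list of 14 intestinal genes summed to 11.2 to 73.3 CPM in 4T07 lungs against 1.59 to 3.07 CPM in the other lungs, and to 0.240 to 0.914 CPM in 4T1 spleens. Clca1, a goblet cell gene, made up 30.4 of the mean 33.3 CPM in 4T07 lungs, and 1 of the 3 listed genes tested was higher there than in control lungs. Adipocyte genes were lower in 4T07 lungs, at 185 to 274 CPM against 495 to 1275 CPM in the others, stomach genes were at 0.826 to 3.69 CPM against 4.60 to 6.28 CPM, and liver genes at 108 to 132 CPM against 166 to 659 CPM. Heart muscle genes were at 22.5 to 115 CPM against 96.2 to 573 CPM, and salivary gland genes stayed at 2.53 CPM or less in all lungs. Pancreatic duct genes, which other epithelia share, were at 805 to 947 CPM against 893 to 1120 CPM. The part of these lists in the member levels was not tested.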

How the data were processed

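RNA from scaffolds, lungs, spleens and tumors was sequenced from 3′ ends (Lexogen QuantSeq with a molecular identifier add-on). The authors deposited 1 table of raw counts per gene for 45 libraries. The submitters' processing notes name Trim Galore 0.5.0, STAR 2.6.0 and featureCounts. The genome build, annotation and handling of molecular identifiers are not given in the sources used here. Of 55487 lines, 120 repeated a symbol and were summed, and 0 columns were left unused. Library totals ran from 3491890 to 8175380 counts. Intervals and the floor of 3 counts cover counting error only.

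Groups of 1 tissue shared a fit, separate from other tissues (edgeR 4.0.16 quasi-likelihood F test, TMM, R 4.3.3), over genes with more than 10 counts in the tissue and with Benjamini-Hochberg adjustment over all of them. Calls needed a fold change over 2 and an adjusted p under 0.10, or under 0.05 in tumors, thresholds taken from the study's methods. The value after ± on a log2 fold change is an approximate SE. It was the absolute log2 fold change divided by the square root of the F statistic, and was not estimated directly. The study used DESeq2, which was run as an alternative (1.42.0). Other alternatives were no filter, at least 10 counts in 3 libraries, DESeq2 size factors, only the compared groups, other scalings and leaving out each library. On simulated counts with 200 genes changed 4-fold, edgeR recovered 94.5% to 96% of them, and 5.42% to 7.35% of its calls were false. The changed genes were drawn from better-counted ones with a spread set in advance, so these rates do not cover members with few counts. The 45 within-group pairs of libraries held no identical columns. Per the study, the 3 libraries of a group came from 3 mice.

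Genes named are the members, the 6 most abundant genes and 10 most alike genes, of which 1 is not reported here, by the rules given with them, the leading gene of a marker list, and those stated to be chosen after their values were seen. The members and all gene lists were chosen with earlier results of these data known. Levels are CPM of the library total, uncorrected for length.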

Additional observations from a re-analysis of the deposited data

How the results depend on the processing

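Counts of called members were recomputed in 21 comparisons under 5 other settings, and 90 of these 105 counts stayed within 1.5 times the main count, and no direction reversed. Without the filter, 7 members were called in 4T1 against control, 4T1 against 67NR and 4T07 against 4T1 scaffolds (0 with the filter), 2 lower in 67NR against control lungs, 7 in 4T1 against control lungs, 10 lower in 67NR against control spleens, 10 in 4T1 against control spleens and 10 lower in 4T07 against 4T1 spleens. DESeq2 called 6 lower in 67NR against control spleens and 0 in 4T1 against control spleens. With only the 2 compared groups these became 8 and 2. With at least 10 counts in 3 libraries, 3 were called in 4T1 against control spleens, 0 in 4T07 against 67NR tumors, where 1 member was tested, and 1 in 4T07 against 4T1 tumors. Apart from the filters, which change the genes tested, the cause was not tested. Leaving out 1 library gave 5 to 9 calls in 4T07 against control and against 67NR scaffolds, 0 to 1 in 67NR against control lungs, 2 to 5 in 4T1 against control lungs, 5 to 9 in 4T1 against 67NR lungs, 0 to 9 in 67NR against control spleens, 0 to 8 in 4T07 against control spleens, 0 to 10 in 4T1 against control spleens, 2 to 9 in 4T07 against 67NR spleens, 5 to 8 in 4T07 against 67NR tumors and 2 to 6 in 4T07 against 4T1 tumors. Scaled to the total without the 100 most counted genes, summed levels became 50.3 CPM in control, 45.1 CPM in 67NR scaffolds, 19.1 CPM in control, 11.7 CPM in 67NR and 862 CPM in 4T07 lungs, 88.5 CPM in 67NR spleens, and, for tumors, 59.0 CPM (67NR) and 21.1 CPM (4T1). No paired analysis was possible because every library has its own number and groups share none. In every control and 67NR library of scaffold, lung and tumor, 8 or 9 of the 10 members had under 10 counts, so small differences were not detectable there at this depth.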
